A study of Fukomys damarensis and Heterocephalus glaber and Mus musculus with 160 samples.

Results

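Mouse heart-only active enhancers are the 15368 autosomal regions that carried H3K27ac and H3K4me1 in heart, lacked H3K4me3 in heart, and overlapped no region of any of the 3 marks in liver. They were chosen in steps from the deposited peak lists. A consensus region of a tissue and mark was a peak that overlapped a peak of at least 1 other replicate by 50% or more of the shorter, with such peaks merged, and the same overlap was asked for between marks and tissues. Of 62758 heart H3K27ac consensus regions, 27520 overlapped heart H3K4me1 and not heart H3K4me3 and are called heart active enhancers here. Of these, 15368 (55.8%) were heart-only, and the other 12152 overlapped a liver region and are called shared enhancers. Shared means marked in liver by at least 1 mark, which need not be H3K27ac. Of the shared enhancers, 8411 (69.2%) overlapped liver H3K27ac, 3730 (30.7%) liver H3K4me1 alone and 396 (3.26%) liver H3K4me3. Over all heart H3K27ac consensus regions, promoters included, 49.5% overlapped no liver region, and by the mirrored rule 13104 of 24361 liver active enhancers (53.8%) were liver-only. The series as a whole held 734157 consensus regions.

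Enhancers are stretches of DNA that raise the transcription of genes at a distance, bound by transcription factors that open the chromatin. Monomethylation of histone H3 at lysine 4 (H3K4me1) is found at enhancers whether active or primed, acetylation at lysine 27 (H3K27ac) at active enhancers and promoters, and trimethylation at lysine 4 (H3K4me3) mostly at promoters. Enhancers are more restricted to a tissue than promoters are, and those of heart muscle are known for binding factors such as GATA4, TBX5, NKX2-5 and MEF2 near genes of contraction and energy supply.

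The series measured the 3 marks by chromatin immunoprecipitation and sequencing (ChIP-seq) in liver and heart of 4 rodent species, of which the mouse is described here. The mice were wild-type C57BL/6J adult males, 2 months old, for both tissues, and the labels name no treatment. Heart had 6 H3K27ac, 5 H3K4me1 and 6 H3K4me3 libraries from 12 animals or pools, and liver had 4 libraries of each mark from the same 4 animals. Only 1 heart replicate, a pool of 3 animals, had all 3 marks, so the marks that define a heart enhancer came mostly from different mice, and heart and liver came from different mice throughout. The organs were diced whole, with the heart chambers not separated, so that fewer cells of a type with a mark and less of the mark per cell cannot be told apart. Liver peaks were called against input chromatin of the same animal in 4 of 4 libraries of each mark, whereas in heart this held for 1 of 6 H3K27ac, 2 of 5 H3K4me1 and 1 of 6 H3K4me3 libraries.

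The size of the peak lists differed among libraries. Autosomal peaks numbered from 56671 to 107890 in the heart H3K27ac lists and from 20489, in the pool, to 128372, in animal 33017, in the heart H3K4me1 lists. Genes could not be used to check the tissues, so each library was read at regions chosen without it. The library labelled heart H3K4me3 of animal 6837 had a peak at 73.3% of promoters marked only in liver, where the other 5 heart H3K4me3 libraries had one at 0.189% to 4.99%. It also had a peak at 23.4% of liver-only enhancers (at most 0.731% in the other 5). The library labelled liver H3K4me1 of animal 85924 had a peak at 25.1% of heart-only enhancers, where the other 3 liver H3K4me1 libraries had 4.36% to 6.67%, and at 67.7% of liver-only enhancers (84.6% to 91.0% in the others). Without these 2 libraries 16543 regions were heart-only, of median width 920 bases.

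**Figure D1:**
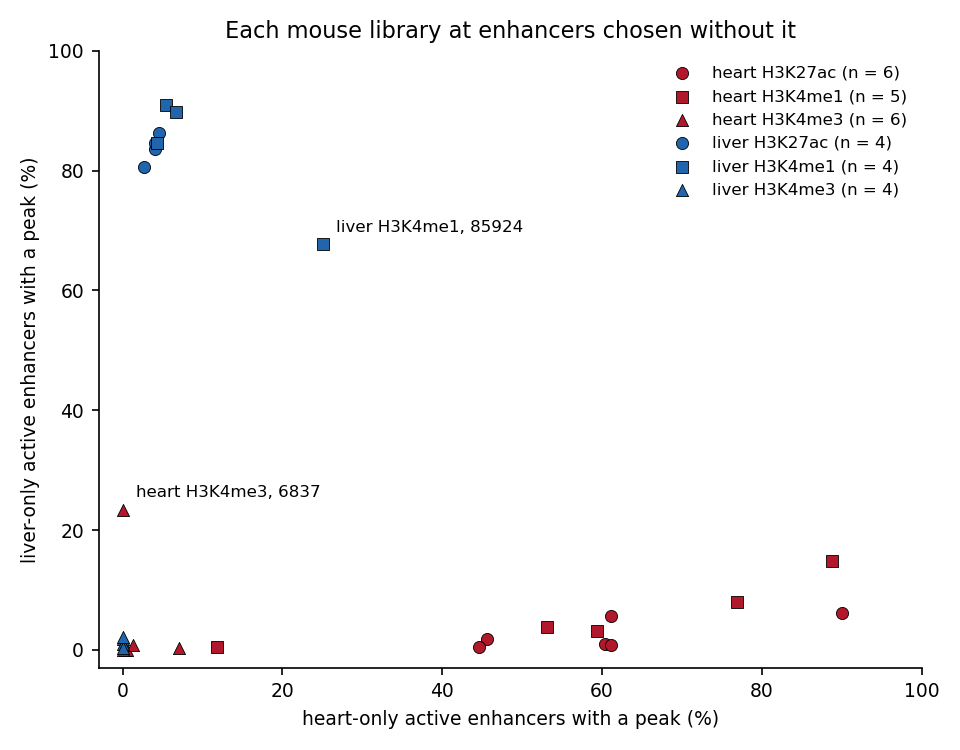
Each point is 1 mouse library, placed by the share of heart-only (x axis, %) and liver-only (y axis, %) active enhancers at which it had a peak, with the enhancers of its own tissue and mark chosen without it. Heart H3K27ac libraries lie at 44.6% to 90.01% on the x axis, and the libraries labelled heart H3K4me3 of 6837 and liver H3K4me1 of 85924 lie apart from the others of their groups.

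Heart-only enhancers were narrow and of moderate enrichment. Their median width was 916 bases (quartiles 566 and 1637, range 209 to 16112), and together they covered 19.6 Mb, or 0.796% of the length spanned by the autosomes. Shared enhancers had a median width of 1379 bases and liver-only enhancers of 926 bases. Only 188 heart-only enhancers (1.22%) were wider than 5000 bases, against 5.74% of shared ones. The fold over background given by the authors' caller, averaged per region over the heart H3K27ac libraries with a peak there, had a median of 5.58 in heart-only and 6.09 in shared enhancers, and reached 20.9 and 31.9. In liver-only enhancers the median fold was 6.66 in the liver lists, which are other libraries with other inputs. Wide regions had higher folds: Spearman's rho between width and mean fold was 0.70 over the 15368 heart-only regions and 0.80 over the 12152 shared ones, where both quantities come from the same peaks. These values come from the lists that chose the regions, so they are a description and carry no test.

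The number of libraries behind a region varied widely. Of the heart-only enhancers, 4327 (28.2%) had an H3K27ac peak in only 2 of the 6 heart libraries, and 3401 (22.1%) had a peak in all 6. In between, 2908 had a peak in 3, 2601 in 4 and 2131 in 5 libraries. Along this order from 2 to 6 libraries the median width was 490, 720, 1039, 1388 and 2187 bases, and the median fold was 4.83, 5.18, 5.63, 6.02 and 7.31. Shared enhancers with the same number of libraries had like values up to 5 libraries (484 bases and 4.78 at 2, 1468 bases and 5.99 at 5), and 42.1% of them had a peak in all 6. Those in all 6 libraries had a median of 2651 bases and a fold of 8.14. H3K4me1 support was spread likewise: 1030 heart-only enhancers met a peak in 1 of 5 libraries, 4389 in 2, 4382 in 3, 4443 in 4 and 1124 in all 5. A core of 625 regions (4.07%) had a peak in all 6 H3K27ac and all 5 H3K4me1 libraries, and 234 of these had no peak in any of the 12 liver libraries. With the library labelled liver H3K4me1 of 85924 set aside, 457 of them had no liver peak.

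**Figure D2:**
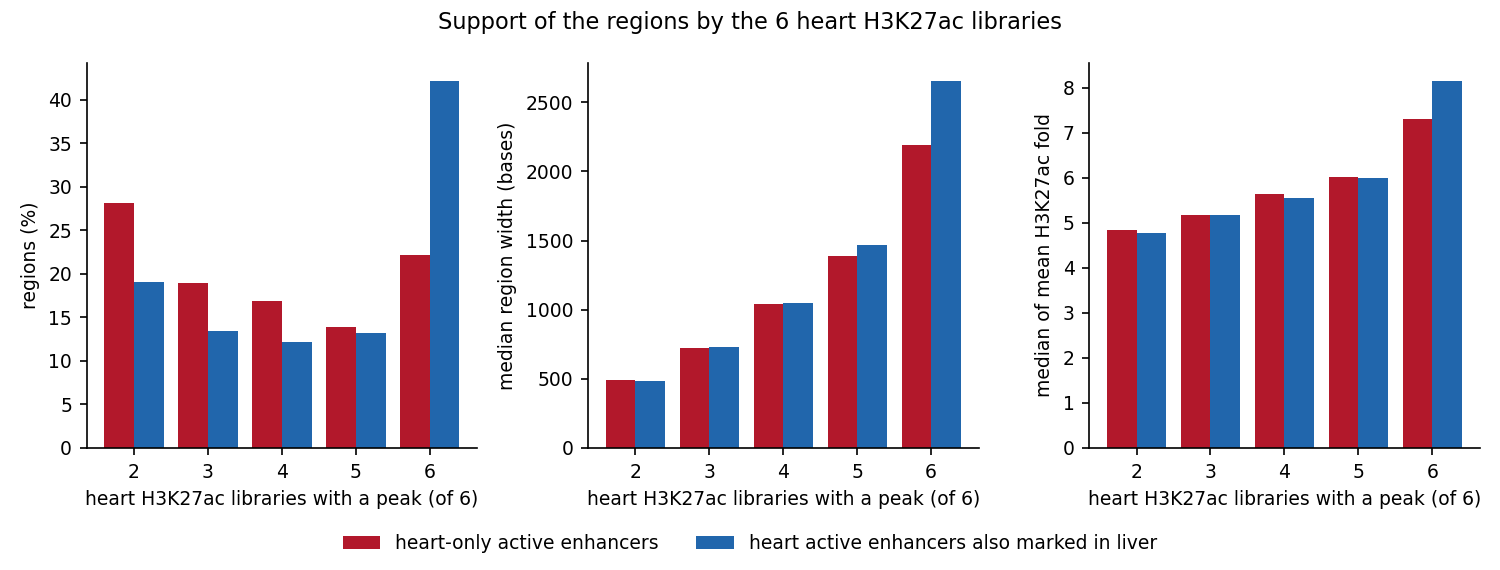
Bars give, for heart-only and shared enhancers by the number of heart H3K27ac libraries with a peak (x axis), the share of regions (left, %), the median width (middle, bases) and the median of the mean fold (right). Heart-only enhancers were most often in 2 libraries (28.2%) and shared ones in all 6 (42.1%), and width and fold were larger with more libraries in both.

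Single libraries saw the heart-only enhancers to different extents. The same lists chose the regions, so these values are a description and carry no test. The share with an H3K27ac peak ran from 46.1% in animal 6839 to 93.7% in animal 73317, with a median over the 6 libraries of 63.9%. The list of 73317 was the longest, with 107890 autosomal peaks, but the pool, with 103270 peaks, had a peak at 66.2%. The median fold at heart-only enhancers was 4.75 in animal 17_36584 and 6.38 in animal 33018, the ends of the range. For H3K4me1 the share was 91.2% in 33017, 79.8% in 17_3498, 62.2% in 17_3500, 55.9% in 17_3501 and 12.4% in the pool, which is also the order of their list lengths.

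Some heart-only enhancers had weak or unreplicated signal of the marks they were chosen to lack. A peak of H3K4me3 in at least 1 heart library met 1092 of them (7.11%), and 936 met one in the pool. In 1053 of these it was in 1 library only, and none had it in 4 or more. Among shared enhancers 70.8% had no H3K4me3 peak in any heart library. In liver, 11029 heart-only enhancers (71.8%) met no peak of any of the 12 lists, 3475 met a peak in exactly 1 list and 864 in 2 or more. Of the 3475, 2379 had it in the library labelled liver H3K4me1 of 85924, and 13408 (87.2%) met no peak of the other liver lists. A region is listed without a peak when it did not pass the caller's threshold there, which does not show that the mark was absent.

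The threshold of overlap with liver touched few regions. Of the 15368, 14788 shared no base with a liver region and 580 shared some. The region just inside was chr12:55059429-55060902 (GRCm38, 1474 bases, 49.9% overlap), with a mean H3K27ac fold of 8.20 over 5 libraries. Just outside, at exactly 50%, was chr17:86271293-86271670 (378 bases), with a mean fold of 6.31 over 2 libraries. The 155 heart-only enhancers with 40% to under 50% overlap had a median width of 739 bases and a fold of 5.19, and the 216 regions with 50% to under 60% had 927 bases and 5.45.

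The heart-only count itself moved with how the lists were combined. It was 9682 with at least 3 replicates, 8082 with the overlap taken on the longer region, 4863 with equal numbers of peaks per library and 2561 with the library series coded "do" alone, in which H3K4me1 rests on 2 heart libraries. Shared enhancers numbered 7902, 3248, 4460 and 4379 in the same order. Heart-only enhancers were thus the smaller part of heart active enhancers in the "do" series.

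Heart-only and shared enhancers were also compared in libraries that had not chosen them. Both sets were chosen again without 1 library and then read in that library. Its replicates still chose the sets, and a wider region has more room to overlap a liver region. The tests over libraries therefore cannot tell a difference between the sets from a choice by width. Some held-out libraries also shared an animal or an input library with lists that still chose the sets. Each library also helped to choose the sets read in the others. The differences over libraries are thus not independent, and the exact tests do not allow for this. Heart-only enhancers were found less often, at lower fold ranks and with narrower peaks than shared ones in every held-out heart H3K27ac library. The share with an H3K27ac peak had a lowest value of 44.6%, a median of 60.8% and a highest of 90.01% over the 6 libraries in heart-only enhancers. In shared enhancers these were 58.8%, 68.7% and 93.5%. The ranges overlap between the sets, but within each library the heart-only share was lower, by 11.9 ± 6.45 percentage points (SD, n = 6; 60.5 ± 16.4% against 72.4 ± 12.5%). This passed the two-sided exact sign-flip permutation test over libraries (adjusted p = 0.03125 over 4 comparisons, the smallest 6 libraries can give).

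The folds of different lists are not on 1 scale, so each peak was given its percentile of fold within its own list. The median percentile of heart-only enhancers ran from 46.0 in animal 6839 to 69.2 in animal 73317 and that of shared enhancers from 55.5 to 75.3 in the same animals. The difference was 8.98 ± 2.36 percentile points in the direction of lower values in heart-only enhancers (SD, n = 6; exact sign-flip permutation test, adjusted p = 0.03125, lower in 6 of 6 libraries). Median H3K27ac peak widths were 561 to 1055 bases in heart-only and 850 to 1499 bases in shared enhancers. On the log2 scale the width fell by 0.59 ± 0.10 from shared to heart-only (SD, n = 6; exact sign-flip permutation test, adjusted p = 0.03125, 6 of 6 libraries). With overlap taken on the longer region the width difference was −0.17 (exact test, adjusted p = 0.03125). Without the 2 libraries that stood apart the differences were −13.2 points for the share, −10.2 for the percentile and −0.66 for log2 width (exact sign-flip permutation test, adjusted p = 0.0417 for each).

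H3K4me3 was also read in each heart library left out of the choice. A held-out heart H3K4me3 library had a peak at 0.0586% to 7.11% of heart-only and at 0.304% to 21.7% of shared enhancers. The highest shares of both sets came from the pool, and the library labelled heart H3K4me3 of 6837 had 0.0845% against 16.4%. Elsewhere it was 0.273% against 0.941% (33016), 0.538% against 1.87% (17_36584), 0.0586% against 0.304% (6839) and 1.26% against 2.31% (6842). The difference was −5.69 ± 7.57 percentage points (SD, n = 6; exact sign-flip permutation test, adjusted p = 0.03125, lower in 6 of 6). Most of its size came from the pool and the library of 6837. Without the 2 libraries that stood apart the difference was −3.96 points in the 5 remaining libraries, which include the pool (exact test, adjusted p = 0.0625, the smallest 5 libraries allow). With equal peak numbers it was −3.13 points (exact test, adjusted p = 0.03125).

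Held-out H3K4me1 libraries showed the same direction in 5 of 5. The share with a peak was 88.8% against 96.4% in 33017, 76.9% against 87.0% in 17_3498, 59.4% against 75.4% in 17_3500, 53.1% against 71.3% in 17_3501 and 11.8% against 29.4% in the pool, heart-only first. Heart-only shares were lower by 13.9 ± 4.76 points, fold percentiles by 10.4 ± 1.72 points and log2 widths by 0.54 ± 0.11 (SD, n = 5; exact sign-flip permutation test, adjusted p = 0.0625 for each, the smallest 5 libraries can give, so this family could not pass 0.05). With overlap taken on the longer region the differences were −5.73, −6.23 and −0.28, and with equal peak numbers the percentile differed by −6.22.

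**Figure D3:**
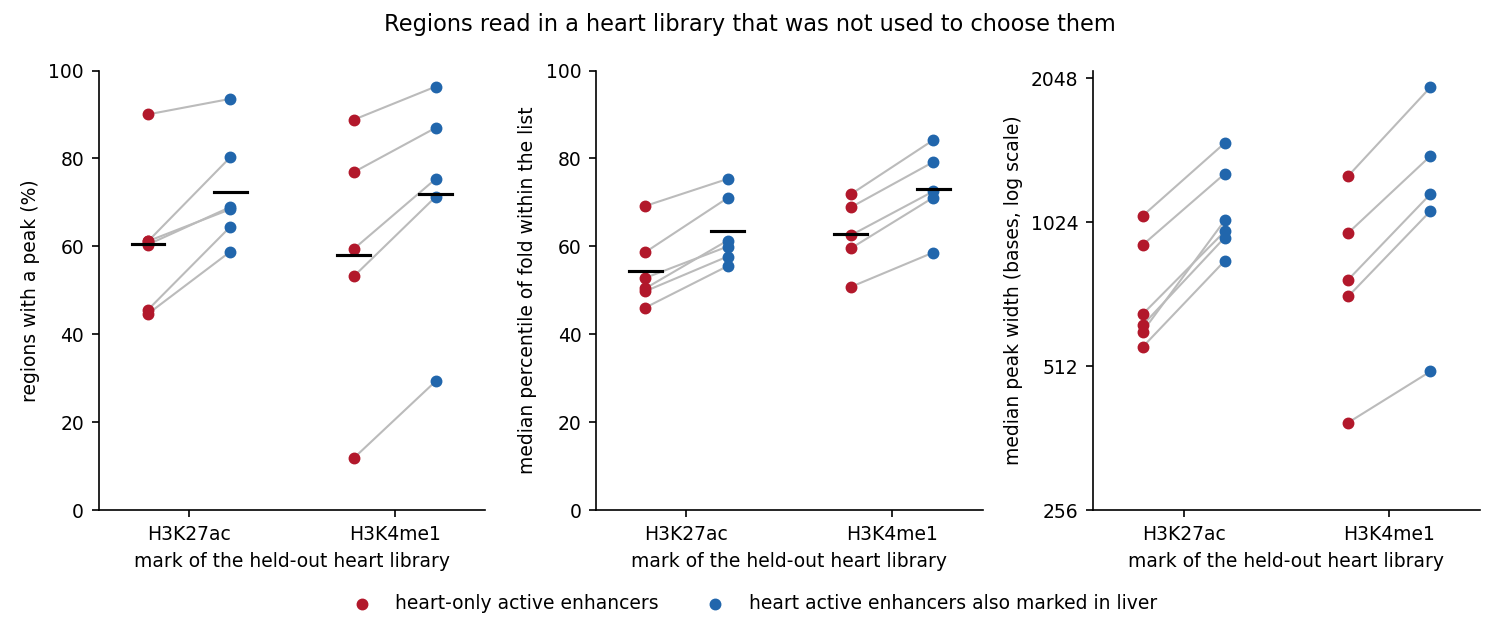
Each dot is a held-out heart library read at heart-only (red) or shared (blue) enhancers chosen without it, and grey lines join the same library. Black bars, not drawn in the width panel, are means over the 6 H3K27ac or 5 H3K4me1 libraries. The panels give the share of regions with a peak (%), the median percentile of fold within the list and the median peak width (bases, log scale), and every line rises from heart-only to shared.

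Width moved with these differences. Among regions of 1000 to under 2000 bases alone, a restriction added after the values were seen, heart-only enhancers were found in 74.98 ± 15.0% and shared ones in 80.4 ± 11.7% of cases in held-out H3K27ac libraries. The difference of −5.43 points was then lower in 4 of 6 libraries (exact sign-flip permutation test, adjusted p = 0.188). The fold percentile differed by −2.23 points (adjusted p = 0.0833, exact test, 5 of 6), the log2 width by −0.12 (adjusted p = 0.0625, exact test, 6 of 6) and the H3K4me3 share by −5.17 points (adjusted p = 0.0625, exact test, 6 of 6). None of the 4 passed after adjustment in this band, and 2 of them had an unadjusted p of 0.03125 in the exact test. In held-out H3K4me1 libraries the band gave −7.80 points for the share, −6.31 for the fold percentile and −0.28 for the log2 width, each in 5 of 5 libraries.

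Held-out liver libraries were read at both sets too. The other liver lists had chosen these sets, so the values are given without a test. A left-out liver H3K27ac library had a peak at 4.06% (85920), 4.58% (85921), 4.06% (85923) and 2.71% (85924) of heart-only enhancers chosen without it, against 58.4% to 65.1% of shared enhancers. In liver H3K4me1 the heart-only share was 4.36%, 5.48%, 6.67% and 25.1% in the same order of animals, and in liver H3K4me3 it was 0.0065% to 0.0586%. At the 719 heart-only regions with a peak in the left-out liver H3K27ac list of 85921, which had the highest share, the median fold was 4.47 and the median width 364 bases. Shared enhancers there had 7.32 and 1218 bases.

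Compared with liver-only enhancers in held-out liver libraries, heart-only enhancers in held-out heart libraries were found in 60.5 ± 16.4% (n = 6) against 83.7 ± 2.43% (n = 4) of cases. This difference of −23.2 points did not pass the exact permutation test after adjustment over 3 comparisons (p = 0.0381, adjusted p = 0.114). With each library left out in turn it passed in 1 of 29 settings (exact permutation test, adjusted p = 0.0238, −21.1 points, 5 heart libraries). That setting left out animal 73317, whose share of 90.01% was the highest in heart. A rule of 2 replicates is looser among 6 heart than among 4 liver libraries, so tissue and rule cannot be told apart here. The fold percentile (54.5 ± 8.32 against 60.5 ± 0.78) and the log2 width (9.48 ± 0.37 against 9.79 ± 0.08) did not pass either (exact permutation test, adjusted p = 0.167 for both).

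The contrast between tissue-only and shared enhancers was itself different in the tissues. In liver, liver-only enhancers differed from liver enhancers also marked in heart by −1.81 ± 1.54 points in the share, 1.33 ± 1.05 points in the fold percentile and −0.31 ± 0.05 in log2 width (SD, n = 4). The heart contrast minus the liver contrast was −10.1 points for the share (exact permutation test of 6 against 4 libraries, adjusted p = 0.0143), −10.3 for the fold percentile (adjusted p = 0.00714, exact test) and −0.29 for the log2 width (adjusted p = 0.00714, exact test). In regions of 1000 to under 2000 bases the fold percentile passed (−8.07, exact permutation test, adjusted p = 0.0143). The share (−5.43 points, exact test, adjusted p = 0.243) and the width (−0.11, exact test, adjusted p = 0.1) did not. With overlap taken on the longer region the width contrast turned to 0.25 (exact permutation test, adjusted p = 0.0143), the share was −6.61 points (exact test, adjusted p = 0.0357) and the fold percentile −3.22 (exact test, adjusted p = 0.0476). Without the 2 libraries that stood apart the 3 contrasts were −11.3, −10.5 and −0.32. Tissue cannot be told apart here from the number of libraries per tissue, the source of the input and the sharing of animals between marks.

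Peak tops lay apart in heart. In the 3401 heart-only enhancers with a peak in all 6 H3K27ac libraries, the summits of the 6 libraries spanned a median of 861 bases, 41.7% of the region's width. In the 5117 shared enhancers of this kind the span was 918 bases (38.3%), and in 8024 liver-only enhancers in all 4 liver libraries it was 158 bases (15.6%). More libraries give a wider span by themselves, so heart and liver are not compared.

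Heart-only enhancers often lay close together. Another heart-only enhancer was within 10 kb, edge to edge, for 9356 of them (60.9%), against 63.0% of shared and 62.4% of liver-only enhancers for their own kind. The sets differ in size (15368, 12152 and 13104 regions), and a set of more regions has shorter gaps by itself. The median gap to the nearest was 4.96 kb and the lower quartile 0.408 kb. Whether such near neighbours are parts of a single marked stretch split by the caller was not tested. Joined at 10 kb, they formed 3211 clusters of 2 or more, of which 1868 were pairs, and 6012 regions stood alone. Clusters of 5 or more numbered 346 and held 2311 heart-only enhancers (15.0%), while such clusters held 20.3% of shared and 11.3% of liver-only enhancers. Of the 346, 210 had no shared enhancer inside, 49 enclosed a heart promoter and 11 enclosed a promoter marked only in heart. The largest held 22.

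The 5 largest clusters show how they differed in make-up. The largest, chr1:153259058-153326601, spread 22 narrow regions (270 to 3529 bases) over 67.5 kb, with a median mean fold of 4.82, and only 4 of them were in all 6 H3K27ac libraries. Its nearest heart promoter, 0.826 kb away, was heart-only, where a heart promoter is an H3K27ac region that overlaps H3K4me3 in heart. The cluster chr19:57069271-57165279 held 20 over 96.0 kb, with 3 shared enhancers and 2 heart promoters inside, 1 of which was heart-only. The cluster chr2:163340599-163388269 was the most compact by coverage, with 16 heart-only enhancers over 73.4% of its 47.7 kb, folds of 4.78 to 12.9, no shared enhancer inside and a heart-only promoter at 2.84 kb. In chr5:66509770-66576057, 16 heart-only and 3 shared enhancers lay 26.2 kb from the nearest promoter, which was also marked in liver. In chr7:80763372-80797610, 15 heart-only enhancers lay over 34.2 kb, and 9 of them had no peak in any liver library.

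The strongest heart-only enhancers were taken from the 234 regions with a peak in all 11 heart H3K27ac and H3K4me1 libraries and in no liver library, a number that is 457 with the library labelled liver H3K4me1 of 85924 set aside. The highest by mean H3K27ac fold was chr6:112399065-112403609 (4545 bases), with folds of 31.5 in animal 33018, 27.9 in 73317, 23.8 in 6837, 21.3 in the pool, 12.6 in 6839 and 8.53 in 17_36584 (mean 20.9 ± 8.85, SD, n = 6). Its H3K4me1 folds were 13.1, 12.2, 11.3, 7.13 and 3.99, the last in the pool. It stood alone, 59.1 kb from the next heart-only enhancer, with a heart-only promoter at 9.55 kb. It also had a peak in 1 heart H3K4me3 library. The second, chr8:12906034-12909971 (3938 bases), had H3K27ac folds with a lowest value of 11.7, a median of 16.8 and a highest of 21.0, and a heart-only promoter at 16.3 kb. It belonged to a cluster of 5.

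Spread over libraries was wide also among the others of the 10 highest, whose mean folds were between 12.7 and 20.9. In chr15:86104180-86111720 the folds ran from 4.72 to 20.8 around a median of 12.8, and in chr12:16834620-16837773 from 6.71 to 24.5 around 11.8. In chr12:4003822-4012341, a region of 8520 bases, they stayed between 11.5 and 17.4. Their ranges overlap, so their order by mean is not separated beyond the spread between libraries. Animal 17_36584, whose list has the lowest median fold over all its peaks (4.88), was lowest or next to lowest in most of them, with 4.72 to 12.8 over the 10. By percentile within the list, the lowest mean over the 6 libraries was 80.3. Both chr6:112399065-112403609 and chr12:16834620-16837773 had a peak in 1 heart H3K4me3 library. Of the 10, 8 lay in clusters, 4 had a heart-only nearest promoter (chr4:114458127-114462545 and chr14:79271372-79280813 besides the first 2), and they fell on 8 chromosomes. Among all heart-only enhancers 60.9% had a neighbour within 10 kb and 11.4% had a heart-only nearest promoter. Their widths of 3154 to 9442 bases are all above the upper quartile of heart-only enhancers, among which width and fold rose together (rho 0.70).

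**Figure D4:**
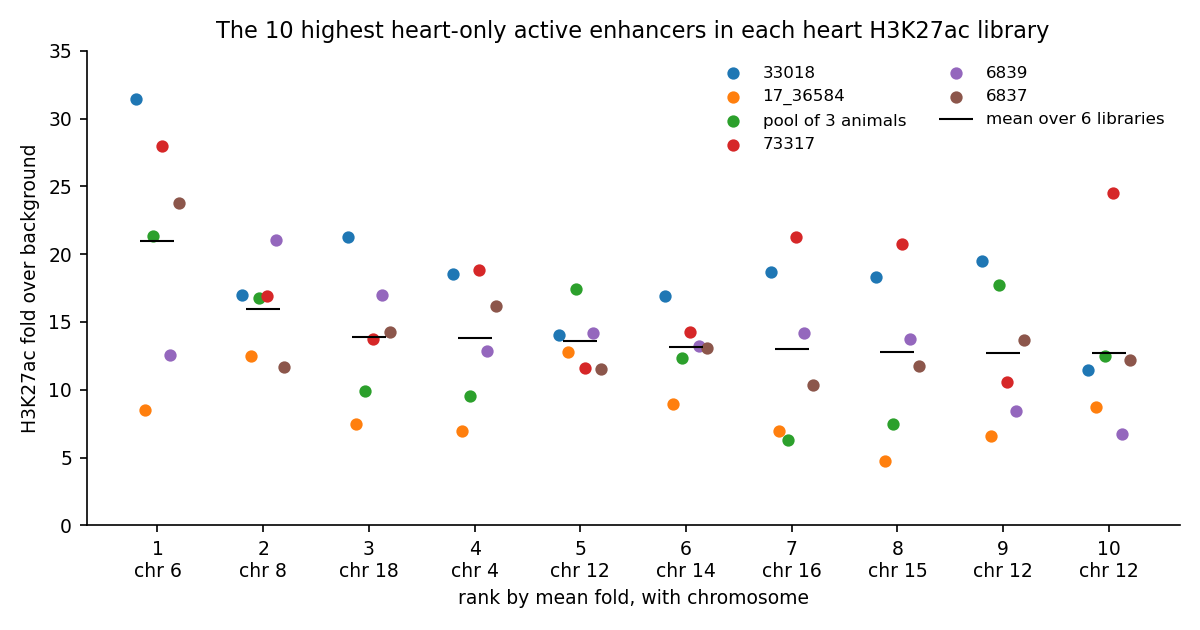
The x axis gives the rank and chromosome of the 10 heart-only enhancers with the highest mean H3K27ac fold. They were taken from those with a peak in all heart H3K27ac and H3K4me1 libraries and in no liver library. Dots give the fold over background in each of the 6 heart H3K27ac libraries and bars the mean (y axis, linear). The first has a mean of 20.9 with values of 8.53 to 31.5, and the ranges of ranks 2 to 10 overlap.

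The widest heart-only enhancers were not all free of liver peaks. The widest, chr2:120093315-120109426 (16112 bases), had H3K27ac folds of 5.87 to 20.2 (median 13.8) in all 6 libraries and a peak in 2 of the 12 liver lists. Next came chr17:50118702-50131201 (12500 bases), with folds of 6.05 to 16.2 and a peak in 3 liver lists. The third, chr15:44665468-44677516 (12049 bases), had folds of 7.20 to 18.1, H3K4me1 in 4 of 5 libraries and no liver peak. It also had a peak in 1 heart H3K4me3 library.

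Heart-only enhancers were found on every autosome, at 6.25 per Mb. The density was highest on chromosome 11, with 9.05 per Mb, and lowest on chromosome 3, with 4.65. Over the 19 autosomes the density went with that of shared enhancers (Spearman's rho 0.80) and of heart promoters (0.72), and less with that of liver-only enhancers (0.39). These are descriptions over 19 points that share libraries and gene density. Chromosomes differed in what part of their heart active enhancers was heart-only, against the 55.8% of all. The share was 63.0% on chromosome 18 (Wilson 95% interval 60.1% to 65.8%), 62.4% on chromosome 1 (60.1% to 64.5%) and 61.5% on chromosome 3 (58.7% to 64.2%). It was lowest on chromosome 4, at 52.4% (50.1% to 54.7%). Which autosomes came first and last changed with the processing: without the 2 libraries that stood apart they were chromosome 1 (65.6%) and chromosome 6 (55.2%). Intervals cover counting error only and neighbouring regions are not independent. On chromosomes 1, 3 and 18 heart-only enhancers numbered 5.96, 4.65 and 7.57 per Mb and shared ones 3.60, 2.91 and 4.45 per Mb. Chromosomes 13, 14 and 16 also had few shared enhancers, at 3.87, 4.02 and 4.15 per Mb, and heart-only shares of 56.8%, 53.9% and 56.3%.

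**Figure D5:**
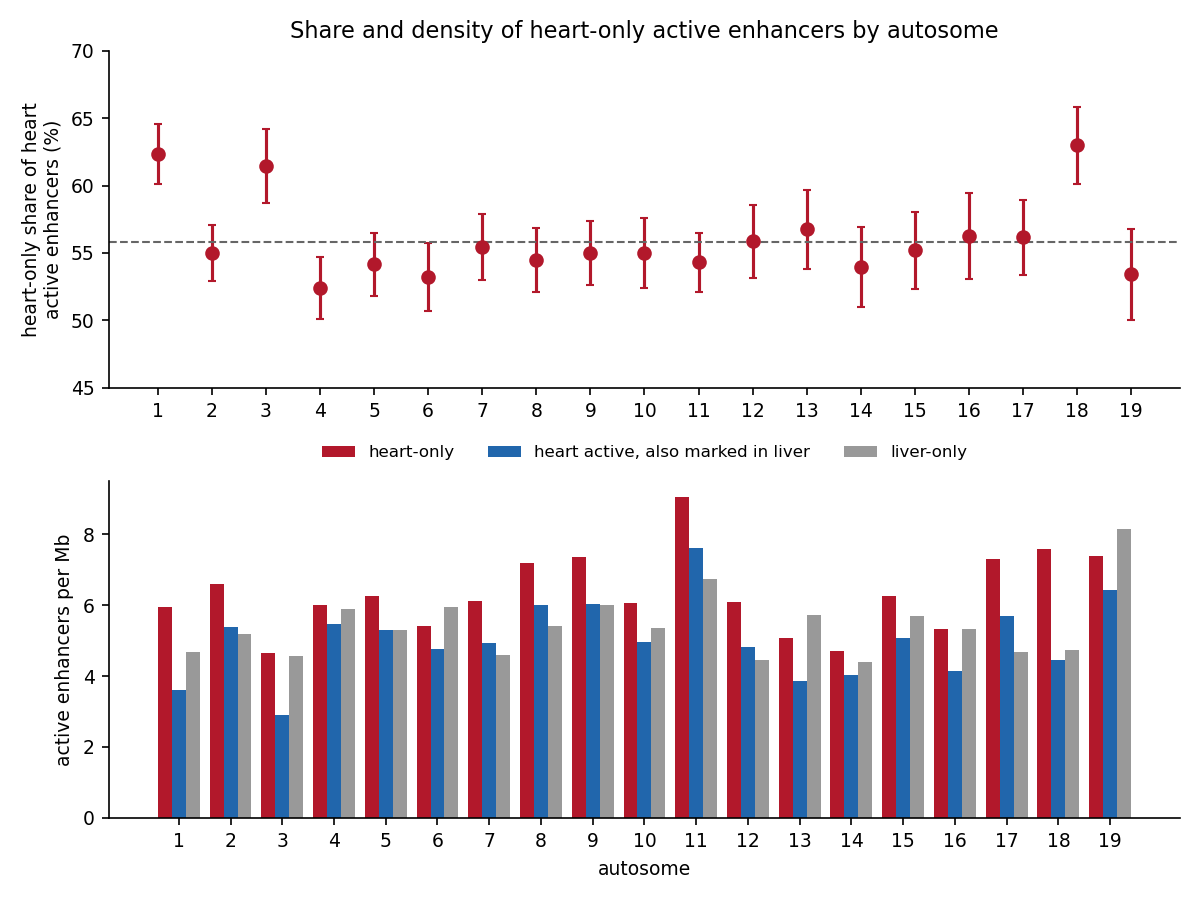
The upper panel gives the heart-only share of heart active enhancers per autosome with Wilson 95% intervals (the axis starts at 45%, and the dashed line is the share over all autosomes, 55.8%). The lower panel gives heart-only, shared and liver-only enhancers per Mb, where chromosome 11 has the highest heart-only density, 9.05 per Mb.

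Within chromosomes the regions were unevenly spread. Of 2468 windows of 1 Mb, 793 (32.1%) held no heart-only enhancer, the median was 3 and the highest 56. The 247 fullest windows held 40.01% of heart-only, 45.4% of shared and 36.3% of liver-only enhancers for their own counts.

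Heart-only enhancers lay farther from heart promoters than shared ones did. The median distance to the nearest was 25.2 kb (quartiles 8.76 and 60.9 kb) against 14.7 kb, and a heart promoter lay within 50 kb of 69.6% of heart-only and 81.1% of shared enhancers. Of the 17049 heart promoters, 1214 (7.12%) overlapped no liver region of any mark. The nearest promoter was such a heart-only one for 1758 heart-only enhancers (11.4%, Wilson 95% interval 10.9% to 11.95%) and for 4.71% of shared enhancers (4.34% to 5.10%). The heart-only enhancers had the higher share on 19 of 19 autosomes. Among enhancers with a heart promoter within 50 kb the shares were 11.1% for heart-only and 4.19% for shared enhancers. In liver, the nearest promoter was liver-only for 16.1% of liver-only enhancers and for 4.74% of liver enhancers also marked in heart. Without the 2 libraries that stood apart the heart shares were 12.7% and 5.47%. Both promoters and enhancers were called heart-only from the same liver lists, so this is a description with no test.

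Seen from the promoters, 58.2% of the 1214 heart-only promoters (Wilson 95% interval 55.4% to 61.0%) had a heart-only enhancer within 50 kb, 1.82 on average and 19 at most. Of the 15835 heart promoters also marked in liver 50.9% had a heart-only enhancer within 50 kb, 1.33 on average. For shared enhancers the order was the other way: they lay within 50 kb of 39.5% of heart-only promoters and 51.3% of the others.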

How the data were processed

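ChIP-seq peak lists of 29 mouse libraries were used. The authors called peaks with MACS2, per the submitters' processing notes, 1 list per library against a named input library and on GRCm38, per the file headers and peak names. Its version is "not given in the sources used here", nor are the aligner and filters. The deposited fold enrichment is a ratio over background, and the deposited −log10 q-value was at least 1.30 in these lists. Read depth per library is unknown. Replicates of a tissue and mark are separate animals, except that 1 heart replicate is a pool of 3 animals, per the labels. Some animals gave libraries of more than 1 mark.

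Consensus regions, overlaps (50% of the shorter) and distances were computed in Python 3.11.15 (SciPy 1.17.1, pandas 2.3.3, NumPy 2.4.6), and checked on simulated data. Held-out sets were compared by two-sided exact sign-flip or permutation tests over libraries, with Benjamini-Hochberg adjustment within families of 3 or 4 and a threshold of 0.05. Regions named were the 10 highest in mean fold, the 3 widest, the 5 largest clusters and those next to the overlap threshold. The 10 highest were taken from regions with a peak in all heart H3K27ac and H3K4me1 libraries and in no liver library. The regions and rules were chosen with earlier results of these data known. Alternatives were other overlaps, stricter peaks, 3 replicates, equal peak numbers, library series, join distances of 5 and 20 kb, and each library left out. No mouse annotation or genome was used here, so genes and sequences were not analysed here, and the planned gene lists were not read. Positions count from 1.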

Additional observations from a re-analysis of the deposited data

Results flagged for a closer look

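Of 46 sets of values from 4, 5 or 6 libraries checked for a value far from the others, 5 had one. The cut-off flags about 1 in 20 such sets when values are normally distributed. Many values here are shares, and the sets reuse the same libraries, so the count of 5 cannot be set against that rate. Among the 6 heart H3K27ac libraries read at heart-only enhancers chosen without them, that of animal 73317 had a peak at 90.01%, far above the next. Among the 6 heart H3K4me3 libraries, the pool had a peak at 7.11% of heart-only enhancers, far above the others. The library labelled heart H3K4me3 of 6837 had a peak at 23.4% of liver-only enhancers and at 73.3% of liver-only promoters, both far above the other 5. The library labelled liver H3K4me1 of 85924 had a peak at 25.1% of heart-only enhancers, far above the other 3.

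Heart and liver differed in how tissue-only enhancers compared with enhancers marked in both tissues in held-out H3K27ac libraries. By an exact permutation test of 6 against 4 libraries the heart difference was lower than the liver difference by −10.1 percentage points in the share with a peak (−11.9 against −1.81), by −10.3 in the fold percentile (−8.98 against 1.33) and by −0.29 in log2 width (−0.59 against −0.31). With overlap taken on the longer region the width difference turned to 0.25 and the percentile difference was −3.22, and in regions of 1000 to under 2000 bases the share and the width did not pass (exact permutation test, adjusted p = 0.243 and 0.1).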

How the results depend on the processing

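The number of heart-only enhancers moved to 8082 with overlap of 50% of the longer region, 9682 with at least 3 replicates, 2561 with the "do" series alone and 4863 with equal peak numbers, and was 10850 to 16534 with 1 library left out. In the same order of settings the median width moved to 1131 and 1274 bases, stayed within the spread in the "do" series, and moved to 1389, and with a −log10 q of at least 4 it was 1086.5 (leave-one-out 852 to 1028). The median fold moved to 6.64 (longer), 6.41 (equal peaks) and 6.21 (−log10 q), with 5.57 to 5.75 leaving out 1 library.

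The share with a neighbour within 10 kb moved to 65.1% (1 base), 41.1% (longer), 53.4% (3 replicates), 54.8% (−log10 q), 40.4% ("do" series), 47.4% (equal peaks), 62.9% without the 2 libraries that stood apart and 59.5% without the H3K4me1 pool and H3K27ac of 73317, and was 54.7% to 63.1% with 1 library left out. Joining at 5 and 20 kb gave 50.1% and 72.1%. The share with a heart-only nearest promoter moved to 19.8% (longer, where that of shared enhancers was 11.4%), 10.3% (3 replicates), 10.7% (−log10 q), 7.97% ("do" series), 9.79% (equal peaks), 12.7% and 12.1% without the 2 pairs of libraries, and 8.37% to 12.8% with 1 left out. The highest autosome was 18, 1 or 3 and the lowest 4, 6 or 19, depending on the setting. The highest autosome share moved to 76.6% (longer) and 48.2% ("do" series), and the lowest to 64.8%, 31.2%, 47.6% (equal peaks) and 55.2% (without the 2 libraries that stood apart). With 1 library left out they were 60.1% to 66.2% and 48.0% to 56.3%.

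With overlap of the longer region 3 values changed sign: heart against liver in fold percentile (2.06, exact permutation test, adjusted p = 0.605) and in log2 width (0.0896, adjusted p = 0.605, exact test), and the heart contrast minus the liver contrast in log2 width (0.25, exact test, adjusted p = 0.0143). Heart against liver in the share passed with equal peak numbers (−21.0, with fold percentile at −14.2) and without the H3K4me1 pool and H3K27ac of 73317 (−21.0). That last setting leaves 5 H3K27ac libraries, where the sign-flip test allows no p under 0.0625, and gave heart-only minus shared differences of −12.5 (share), −8.97 (percentile) and −0.56 (log2 width). The H3K4me3 share there was −5.84 over 6 libraries (exact test, p = 0.03125, adjusted p = 0.0625 in the same family). Without the 2 libraries that stood apart the H3K4me3 difference was −3.96. In regions of 1000 to under 2000 bases the differences were −5.43, −2.23, −0.12 and −5.17, and the heart minus liver contrasts −5.43 (share) and −0.11 (width). The cause of these changes was not tested.

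With 1 library left out, the heart-only minus shared difference was −12.6 to −10.4 for the H3K27ac share, −9.88 to −8.20 for the percentile, −0.63 to −0.54 for log2 width and −7.11 to −4.04 for the H3K4me3 share, with the calls lost where a heart H3K27ac library was left out. The H3K4me3 share lost its call then too, with its own 6 libraries and an unadjusted p of 0.03125 in the exact test, and where a heart H3K4me3 library was left out. It was −14.2 to −12.0, −11.1 to −9.02 and −0.59 to −0.51 in H3K4me1. Heart against liver gave −28.9 to −18.2, −10.1 to −3.91 and −0.49 to −0.18, and the contrast of contrasts −10.8 to −8.53, −11.3 to −9.30 and −0.33 to −0.23.

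No paired analysis was possible because heart and liver came from different animals, for the comparisons between tissues, whereas heart-only and shared enhancers were paired within each library in all fits. Planned comparisons with gene starts, gene groups and sequence content were not run, for want of a GRCm38 annotation and genome. Read depth is not known from peak lists, so a region without a peak was not detectable there at the caller's threshold.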
